A study of Saccharomyces cerevisiae with 4 samples.

Results

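The nuclear pore complex genes described here are 33 open reading frames (ORFs) of budding yeast. These genes were chosen by name and not by any measured value, though with earlier results of these data known. They comprise the nucleoporins (the NUP genes with ASM4, NIC96, NSP1, SEC13 and SEH1), the membrane pore proteins POM33, POM34, POM152 and NDC1, the basket filaments MLP1 and MLP2, and the export factors GLE1 and GLE2. All 33 were listed among the 6348 ORFs of the count data, and all 33 were among the 5680 ORFs tested, those that reached 15 reads in a library of pair A and in one of pair B. The libraries were made from poly(A) RNA of 1 haploid strain (MATa) and 1 isogenic tetraploid strain (MATaaaa) of the Σ1278b background, both ura3-52, leu2::hisG and his3::hisG. Both ploidies carry only the MATa mating type, so mating type does not differ between them. Each strain was grown in 2 cultures, in synthetic complete medium with 2% glucose at 30 °C and collected in mid-log phase, which gave pair A and pair B of 1 haploid and 1 tetraploid culture each. The question put to these genes is whether their transcripts, relative to those of other genes, differed between cells with 1 and with 4 genome copies. Since each ploidy is 1 strain, the replicates measure the spread between cultures and not between independently built strains.

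Nuclear pores are large protein assemblies that span the nuclear envelope and carry all regulated traffic between nucleus and cytoplasm. A membrane ring anchors the pore, an inner ring and outer rings build its scaffold, and nucleoporins rich in phenylalanine-glycine (FG) repeats line the channel, where transport receptors bind. Cytoplasmic filaments finish messenger RNA export, and a nuclear basket docks messenger ribonucleoproteins and chromatin on the inner face. Yeast divides with its nuclear envelope intact, so pores are assembled into the envelope throughout the cell cycle, and most scaffold proteins are needed for growth or for an evenly pored envelope.

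The 4 libraries held between 3612527 and 4133193 reads on ORFs. Of these, 6674 to 10236 fell on the pore genes, with 51 to 679 reads per gene and library, and the pore genes' median reads were between 193 and 282, against 85 to 137 over all tested ORFs. Haploid A and tetraploid B most often held the extreme values: haploid A was the lowest library for 35.0% of all tested ORFs and the highest for 31.8%, and tetraploid B was the lowest for 27.6% and the highest for 29.3%. Of the pore genes, 30.3% were highest in haploid A and 36.4% in tetraploid B. The mating type, which the study gives for its strains, was checked with the MATa genes MFA1, MFA2, STE2, STE6 and BAR1. Their reads summed to 4048 and 3050 in the haploids and to 1194 and 1158 in the tetraploids. The MATalpha genes MFALPHA1, MFALPHA2 and STE3 had 30 to 46 reads, fewer than the MATa genes in every library. The study lists all of these MATa genes among those repressed in its tetraploid. Levels are given as CPM, reads scaled to a library of 1000000 after correction by the trimmed mean of M values (TMM). They are relative to most other ORFs and not shares of a library: with this correction the CPM of all tested ORFs summed to 1189170 in haploid A, 1024190 in haploid B, 970153 in tetraploid A and 842377 in tetraploid B. Amounts of RNA per cell and numbers of pores were not measured. Error is given as the SD of 2 libraries or as the standard error (SE) of a log2 fold change, tetraploid over haploid.

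Relative to most other ORFs, the summed level of the pore genes was close in the ploidies, while their share of all reads on ORFs was higher in tetraploids. On the TMM scale the 33 genes summed to 2127 CPM in haploid A and 2073 CPM in haploid B, against 2145 CPM in tetraploid A and 2139 CPM in tetraploid B. The haploids thus averaged 2100 ± 38.2 CPM and the tetraploids 2142 ± 4.33 CPM (SD, n = 2), a difference close to the spread of the haploid libraries. Without that correction, the pore genes took 0.179% and 0.202% of the reads on ORFs in haploids A and B, and 0.221% and 0.254% in tetraploids A and B. The share was 23.6% higher in the tetraploid of pair A and 25.4% higher in that of pair B. On this unscaled share the median of all ORFs also lay higher in tetraploids, by 0.30 on the log2 scale, beside 0.37 for the pore genes. With pair as a block and adjustment over all tested ORFs, 1 pore gene fell in tetraploids (POM33) and 2 rose (MLP1 and MLP2), at an adjusted p under 0.05 in edgeR. That is 9.09% of the members, beside 7.87% of all tested ORFs, of which 5.35% fell and 2.52% rose. These shares were close, but the first rests on 3 genes and the pore genes had more reads than most ORFs. Among genes with at least 100 reads in every library, the same fit called 3.45% of 29 pore genes and 11.5% of 2384 ORFs. That minimum left out POM33 (96 reads in tetraploid B) and MLP2 (72 reads in haploid A), so the 3.45% is MLP1 alone. These shares therefore cannot show whether well covered pore genes were called less often than other ORFs. At an unadjusted p under 0.05 there were 4 of the 33 pore genes, with GLE1 as the fourth, and such genes made up 24.8% of all ORFs. Without the block no pore gene passed, beside 0.387% of all ORFs, and 3 had an unadjusted p under 0.05, beside 9.21% of all ORFs. Scaling by the summed reads on ORFs, as in the unscaled share, moved the median log2 fold change of all ORFs to 0.30. There 0 pore genes fell and 9 rose (27.3% of the pore genes), beside 20.6% of all ORFs that rose. Scaling by the total reads of the study moved that median to 0.38. There 0 pore genes fell and 19 rose (57.6% of the pore genes), beside 36.9% of all ORFs that rose.

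Most pore genes had small fold changes. The log2 fold changes ran from -0.59 to 0.60 with a median of 0.08, and 21 genes lay above 0 and 12 below, whereas the median of all tested ORFs was 0.01. The middle of the list, from the lower to the upper quartile, spanned -0.10 to 0.15, against -0.22 to 0.23 for all ORFs. In absolute size the median log2 fold change was 0.11 for the pore genes and 0.22 for all ORFs. Among genes with at least 100 reads in every library the same quantity was 0.11 for the 29 pore genes and 0.19 for the 2384 ORFs, so the smaller size was also seen among well covered genes. No pore gene had a log2 fold change over 1 in size, beside 1.97% of all ORFs and 30 of the 2384 well covered ORFs. For all 33 pore genes the 95% interval lay between -1 and 1, a 2-fold difference in either direction. It did so for 86.2% of all ORFs and for 96.7% of the 2384 with at least 100 reads in every library. Without the block this held for 29 of them, with POM33, MLP1, MLP2 and GLE1 as the exceptions, and for 72.7% of all ORFs. The direction was the same in both pairs for 19 of the 33 genes, while 68.2% of all ORFs had the same direction in both pairs.

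**Figure D1:**
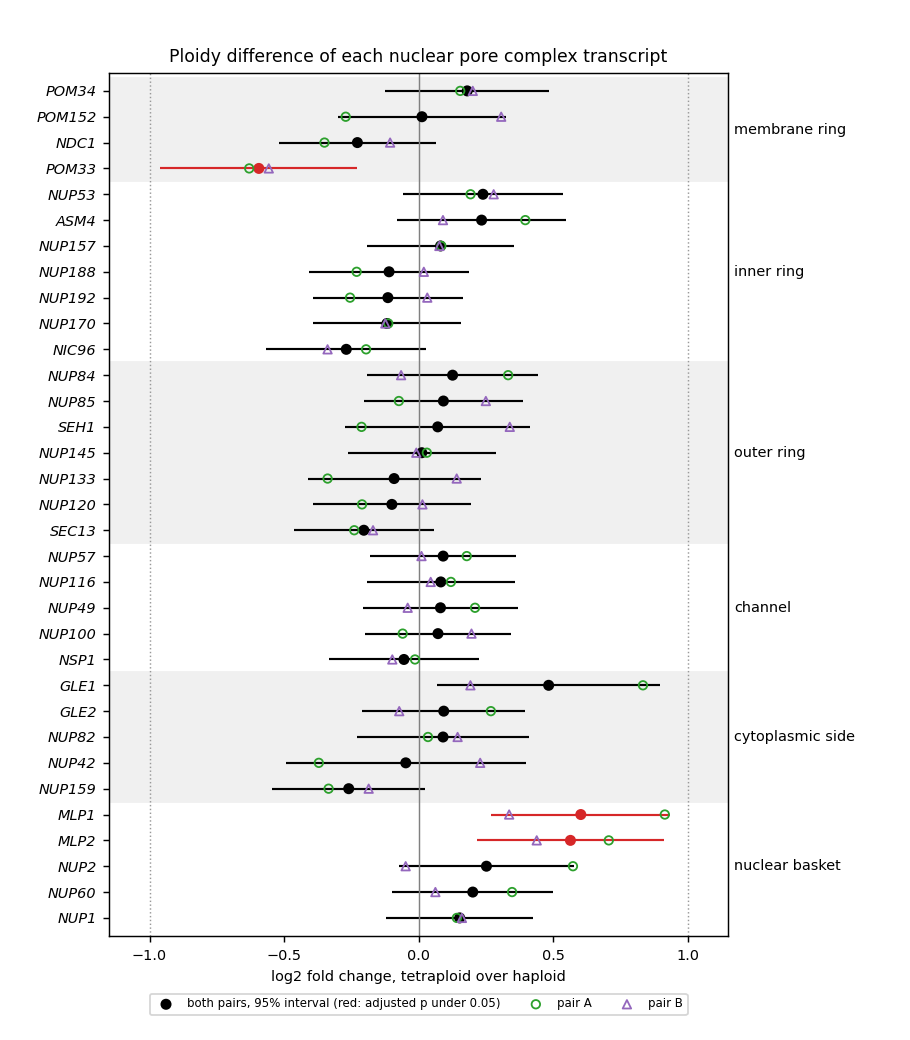
Log2 fold change, tetraploid over haploid (x axis), of each of the 33 pore genes (y axis, grouped by place in the pore). Filled points are the fit over both pairs with the 95% interval, red where the adjusted p was under 0.05, and open circles and triangles are pair A and pair B alone. POM33 lies at -0.59, MLP2 at 0.56 and MLP1 at 0.60, and every interval stays between -1 and 1.

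**Figure D2:**
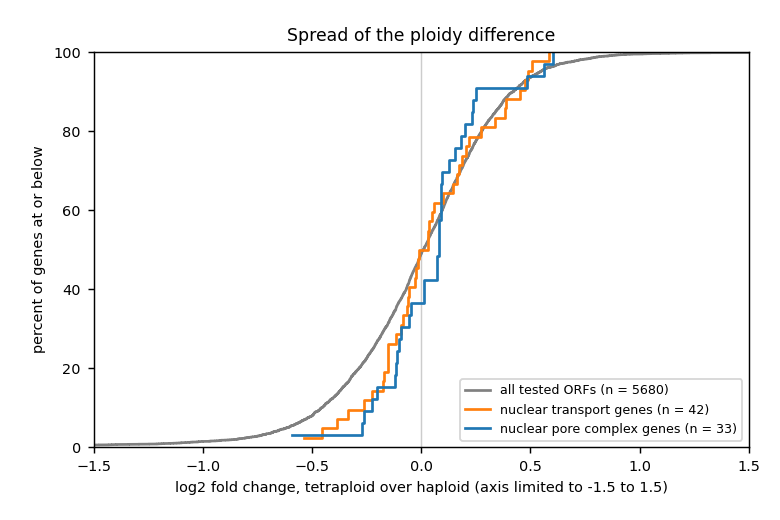
Percent of genes (y axis) whose log2 fold change, tetraploid over haploid, was at or below the value on the x axis, for the 33 pore genes, the 42 nuclear transport genes and the 5680 tested ORFs. The curve of the pore genes is steeper around 0 than that of all ORFs, with quartiles at -0.10 and 0.15 against -0.22 and 0.23.

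Transcript levels differed far more between pore genes than between ploidies. Per coding kilobase, with coding lengths taken from the S288C reference strain, the level of the pore genes spanned a 24.9-fold range, and its median of 24.1 CPM per kb was close to the 23.4 CPM per kb of all ORFs. SEC13 was the highest in all 4 libraries, at a mean of 165.9 CPM per kb. Its product is shared by the outer ring and the COPII coat of secretory vesicles, so that its transcript serves more than the pore. Next in order of mean level came NUP57 with 62.4, GLE2 with 53.1, POM34 with 49.0, NUP49 with 48.2 and NUP100 with 42.4 CPM per kb. The ranges of these 5 genes over the libraries overlapped from one gene to the next. NUP57, NUP49 and NUP100 carry FG repeats, and how many of their reads map uniquely was not tested, which limits the comparison of their levels and ranks with those of other genes. MLP2 was the lowest in every library, from 4.55 to 8.42 CPM per kb, and MLP1 came next on average, from 6.12 to 12.2 CPM per kb, overlapping NUP188 with 9.83 to 14.8 CPM per kb. The order of the 33 genes was much the same in every library, with a Spearman correlation across genes between 0.91 and 0.98 for pairs of libraries (33 genes, which are not independent replicates).

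**Figure D3:**
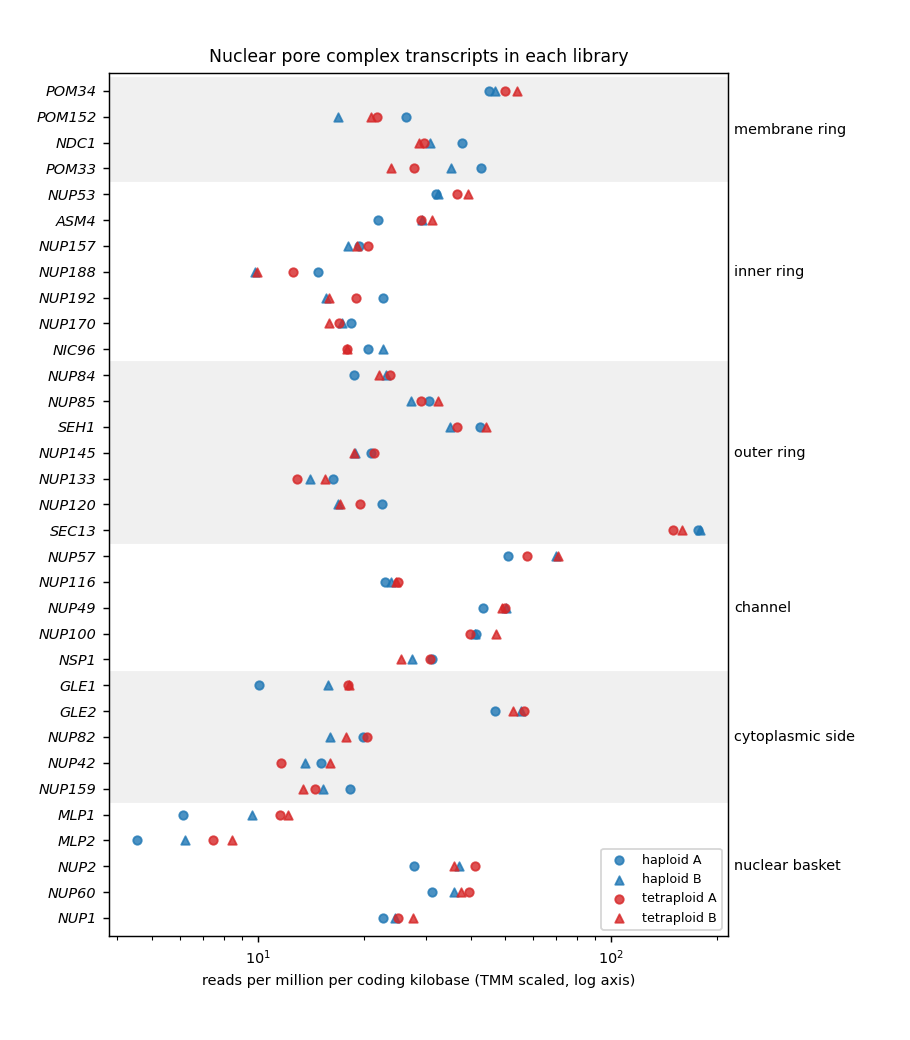
Level of each pore gene in each library, in CPM per coding kilobase (x axis, log scale). Blue marks the haploids and red the tetraploids, with circles for pair A and triangles for pair B. SEC13 stands far to the right of the others, MLP2 is the lowest in every library, MLP1 overlaps NUP188, and the libraries of a gene lie close together beside the spread between genes.

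The nuclear basket was the group with the highest fold changes. It holds the long coiled-coil proteins MLP1 and MLP2, which form its filaments and of which MLP1 retains unspliced messages, with NUP60, which tethers them, and the FG proteins NUP1 and NUP2, which take part in receptor recycling. All 5 of its genes had a log2 fold change above 0 (median 0.25), in 4 of them both tetraploid libraries exceeded both haploid libraries, and MLP1 and MLP2 passed the test. Tetraploids lay above haploids without overlap in 8 pore genes in all, and in 21.9% of all ORFs. The summed level of the basket genes was 240.6 and 303.1 CPM in haploids A and B, and 336.7 and 338.1 CPM in tetraploids A and B. In all 5 genes haploid A was the lowest library, while it was the lowest for 42.4% of the 33 pore genes.

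MLP1 (YKR095W, chromosome XI) was read 108 times in haploid A, 191 times in haploid B, 277 times in tetraploid A and 328 times in tetraploid B. These counts correspond to 34.4, 54.2, 65.1 and 68.5 CPM in the same order. Both tetraploids were above both haploids, and the 2 haploids lay further apart than the 2 tetraploids. MLP1 rose in tetraploids by a log2 fold change of 0.60 (SE 0.16, adjusted p = 0.029), or 1.52-fold, and by 0.92 within pair A and 0.34 within pair B. MLP2 (YIL149C, chromosome IX), its paralog, had 72 and 110 reads in haploids A and B and 160 and 203 reads in tetraploids A and B. In CPM this was 22.9 and 31.2 in the haploids and 37.6 and 42.4 in the tetraploids, again without overlap. MLP2 rose by 0.56 (SE 0.16, adjusted p = 0.047), or 1.48-fold, and by 0.71 within pair A and 0.44 within pair B. Without the block for pairs neither gene passed, at adjusted p values of 0.525 and 0.529. Without haploid A, in a fit that also had no block, the fold changes were 0.30 and 0.36 on the log2 scale.

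The ratio of the paralogs stayed much the same. Per coding kilobase MLP1 exceeded MLP2 by 0.43 and 0.64 (log2) in haploids A and B and by 0.63 and 0.53 in tetraploids A and B, so the ploidies overlapped. Both genes are long, with 5628 and 5040 coding bases in S288C, and their GC content of 34.9% and 35.1% is below the pore genes' median of 39.4%. With GC content and length as offsets in the fit, their log2 fold changes were 0.41 and 0.39, at adjusted p values of 0.056 and 0.109. Of the 189 tested ORFs with at least 4000 coding bases, 5 fell and 7 rose, while of all 5680 tested ORFs 304 fell and 143 rose. The median of these long ORFs was 0.03 on the log2 scale, with 0.07 within pair A and -0.01 within pair B. The part of length in the values of MLP1 and MLP2 was not tested further. The part of GC content in the basket values was not tested further.

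The other basket genes did not pass the test. NUP2 had 59.9 and 80.3 CPM in haploids A and B and 89.3 and 77.7 CPM in tetraploids A and B, so the ploidies overlapped, and its log2 fold change of 0.25 (SE 0.15) came from pair A, at 0.57, as pair B gave -0.05. NUP60 had 0.20 (SE 0.14), with 0.35 within pair A and 0.06 within pair B. NUP1 had 0.15 (SE 0.13), and for both NUP60 and NUP1 the tetraploid libraries were the higher ones. The difference between the basket and the other groups was not tested.

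The membrane ring held the only pore gene that fell. POM33 (YLL023C, chromosome XII) encodes a membrane protein that helps to distribute and assemble pores. It had 113 and 104 reads in haploids A and B and 99 and 96 reads in tetraploids A and B, although the tetraploid libraries held more reads. Its level was 36.0 and 29.5 CPM in the haploids and 23.3 and 20.1 CPM in the tetraploids, so both tetraploids lay below both haploids. POM33 fell by 0.59 on the log2 scale (SE 0.17, adjusted p = 0.046), and the 2 pairs gave nearly the same value, -0.63 (A) and -0.56 (B). Without the block the adjusted p was 0.509. Without single libraries, in fits that also had no block, the log2 fold change ran from -0.73 to -0.45.

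The 3 other membrane proteins had smaller values that did not pass. NDC1, which is shared by pores and the spindle pole body, the yeast centrosome, had 74.3 and 60.5 CPM in haploids A and B and 58.3 and 56.2 CPM in tetraploids A and B. Its log2 fold change was -0.23 (SE 0.14, adjusted p = 0.323), with the tetraploids below the haploids, though it was 0.06 and 0.14 with the summed and the total reads as the scale. POM34 had 0.18 (SE 0.14) and POM152 had 0.01 (SE 0.15), and POM152 went in opposite directions in the pairs, -0.27 (A) and 0.31 (B). Over all ORFs 20.5% had tetraploids below haploids without overlap, and among the pore genes there were 6, with POM33 and NDC1 among them.

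None of the 7 outer ring genes passed the test. This Y-shaped scaffold complex of NUP84, NUP85, NUP120, NUP133, NUP145, SEC13 and SEH1 coats the curved membrane of the pore on both faces. Its median log2 fold change was 0.01, with 4 genes above 0. The lowest was SEC13, with 158.1 and 159.5 CPM in the haploids and 133.9 and 141.9 CPM in the tetraploids. Its replicates lay close together and the ploidies did not overlap, but the log2 fold change of -0.20 (SE 0.12, adjusted p = 0.319) did not pass. On the scales of summed and of total reads it was 0.08 and 0.16, and all other pore genes below 0 except POM33 also lay above 0 there. The 6 others ran from -0.10 for NUP120 to 0.13 for NUP84, and in each of them the libraries of the ploidies overlapped. NUP145, whose product cleaves itself into an outer ring part and an FG part, was at 0.01 (SE 0.13).

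The 7 inner ring genes, which encode the core scaffold around the channel and its link to the membrane, likewise held no call. Their median was -0.11, with 3 genes above 0, and the largest members NUP188 and NUP192 were both at -0.11. NIC96, which anchors the channel FG proteins to the scaffold, was the lowest, with 51.6 and 57.1 CPM in haploids A and B and 45.1 CPM in both tetraploids. Its log2 fold change was -0.27 (SE 0.14, adjusted p = 0.249), and the ploidies did not overlap. NIC96 is the only pore gene on chromosome VI. On this chromosome 97 of the other 110 tested genes lay below 0, and their median was -0.40 on the log2 scale. Among the 111 genes of that chromosome NIC96 ranked 77th from the lowest, so its value was less negative than that of most of its neighbours, and the part of the chromosome in it was not tested.

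The paralog pairs of the inner ring had opposite or like values. NUP157 and NUP170, large scaffold proteins, were at 0.08 (SE 0.13) and -0.12 (SE 0.13). NUP157 had 80.6 and 75.2 CPM in the haploids and 85.5 and 79.4 CPM in the tetraploids, and NUP170 had 82.5 and 78.1 CPM in the haploids and 76.4 and 71.7 CPM in the tetraploids. Per coding kilobase the log2 ratio of NUP157 to NUP170 was 0.08 and 0.06 in haploids A and B and 0.27 and 0.26 in tetraploids A and B, a difference without overlap that was seen in the data first and was not tested. NUP53 and ASM4, which bind the membrane, were at 0.24 (SE 0.14, adjusted p = 0.305) and 0.23 (SE 0.15, adjusted p = 0.350). NUP53 had 45.6 and 46.3 CPM in the haploids and 52.2 and 56.2 CPM in the tetraploids, without overlap. ASM4 had 34.7 and 46.3 CPM in haploids A and B and 45.8 and 49.3 CPM in tetraploids A and B, and here haploid A alone was low.

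The channel genes were close to 0. NSP1, NUP49 and NUP57, which form 1 complex in the centre of the pore, were at -0.05, 0.08 and 0.09. The paralogs NUP100 and NUP116 were at 0.07 and 0.08, and all of these genes had an SE of 0.13 to 0.14. NUP100 had 119.2 and 118.6 CPM in the haploids and 114.4 and 136.0 CPM in the tetraploids. NUP116 had 76.5 and 79.8 CPM in the haploids and 83.2 and 82.3 CPM in the tetraploids. The haploid values lay inside the tetraploid range for NUP100 and just below it for NUP116. NUP57 differed more between pairs than between ploidies, with 83.2 and 113.8 CPM in haploids A and B and 94.2 and 114.7 CPM in tetraploids A and B.

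FG repeats were counted in the proteins that S288C encodes, as the number of F-G residue pairs, and the Σ1278b proteins may differ in repeat number. There were 10 members with at least 10 such pairs. NUP116 had the most with 47, followed by NUP100 with 45, NSP1 with 33, NUP42 with 29 and NUP159 with 28, and the others were NUP49, NUP1, NUP57, NUP145 and NUP2. GLFG was the form of 20 of the pairs in NUP116, 11 in NUP100, 9 in NUP57, 8 in NUP49 and 7 in NUP145. The form F-x-F-G, where x is any residue, was most frequent in NSP1 with 19, NUP1 with 13 and NUP2 with 11. None of the 10 FG genes passed the test. Their log2 fold changes ran from -0.26 to 0.25 with a median of 0.08, and the 23 other members, among them the 3 calls, had the same median of 0.08.

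The cytoplasmic side, where messages are released from their export receptor, held no call. GLE1, the activator of the helicase that strips messages of export proteins, had 16.3 and 25.5 CPM in haploids A and B and 29.1 and 29.3 CPM in tetraploids A and B. The tetraploids were above the haploids and nearly equal, and the log2 fold change of 0.48 (SE 0.20, adjusted p = 0.136) was larger in pair A, at 0.83, than in pair B, at 0.19. With 51 reads in haploid A it had the lowest count of the pore genes. NUP159, the docking site of that helicase, had 80.0 and 67.0 CPM in the haploids and 63.4 and 58.9 CPM in the tetraploids, without overlap and with a log2 fold change of -0.26 (SE 0.13, adjusted p = 0.244). NUP42, NUP82 and GLE2 were at -0.05 (SE 0.21), 0.09 (SE 0.15) and 0.09 (SE 0.14), and the ploidies overlapped in all 3.

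The 2 pairs differed in the pore genes about as much as the ploidies did, and the same held over all tested ORFs. In the same fit, no pore gene differed between pair B and pair A at an adjusted p under 0.05 in edgeR (1 in limma-voom, 0 in DESeq2), beside 9.49% of all tested ORFs. At an unadjusted p under 0.05 there were 5 (NUP188, NUP192, NUP57, POM152 and NUP120), and 24.2% of all ORFs. The log2 fold changes of pair B over pair A ran from -0.45 for NUP188 to 0.36 for NUP57. Their median absolute size was 0.13, against 0.11 for the ploidy difference, and for 13 of the 33 genes the pair difference was the larger of the 2. Over all tested ORFs these sizes were 0.22 for the pair and 0.22 for the ploidy difference. There the pair difference was the larger for 2770 of 5680 ORFs.

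Nuclear transport factors and pore-associated factors were described with 42 genes that are not among the 33, all of which were tested. None passed the test in edgeR and 1, SEM1, in limma-voom, while 2 had an unadjusted p under 0.05 with lower and 6 with higher values in tetraploids, beside 14.2% and 10.6% of all ORFs. Their median log2 fold change was 0.01, with 21 genes on each side of 0. The 18 karyopherins and export receptors, which carry cargo through the channel, had a median of -0.03, and the 8 genes of the Ran cycle, which gives transport its direction, had a median of -0.06. The 16 genes of pore-associated and pore assembly factors had a median of 0.21, with 12 above 0.

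The lowest of these genes was PER33, the paralog of POM33, and the highest was SEM1. PER33 had 53.2 and 20.2 CPM in haploids A and B and 26.8 and 20.9 CPM in tetraploids A and B. Its log2 fold change of -0.54 (SE 0.21, adjusted p = 0.129) was -0.99 within pair A and 0.05 within pair B, and it was 0.24 without haploid A, the library in which it was high. BRR6, a membrane protein needed for pore assembly, had 18.5 and 15.3 CPM in the haploids and 11.5 and 13.0 CPM in the tetraploids, with a log2 fold change of -0.46 (SE 0.22, adjusted p = 0.217). SEM1, a subunit of the export complex TREX-2 and of the proteasome, had 36.0 and 72.7 CPM in haploids A and B and 76.6 and 82.3 CPM in tetraploids A and B. Its log2 fold change was 0.58 (SE 0.18, adjusted p = 0.054), and the pairs gave 1.08 (A) and 0.18 (B). SRC1, an inner nuclear membrane protein, had 27.4 and 30.9 CPM in the haploids and 43.5 and 39.7 CPM in the tetraploids, with a log2 fold change of 0.51 (SE 0.16, adjusted p = 0.065).

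The 3 calls among the pore genes depended on how the counts were processed, though their direction did not. POM33 passed under 1 of the 10 alternatives that gave it an adjusted p, MLP1 under 3 of 12 and MLP2 under 3 of 10. These alternatives include the fits without single libraries, which also had no block. As the calls already failed without the block, those fits cannot show whether a call depended on a single library. The log2 fold change of POM33 ran from -0.73 to -0.23 over the alternatives, that of MLP1 from 0.30 to 0.97 and that of MLP2 from 0.36 to 0.93. The highest values of MLP1 and MLP2 came with scaling by the total reads of the study, where the median of all tested ORFs lay at 0.38, and relative to that median they were close to the values reported here.

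**Figure D4:**
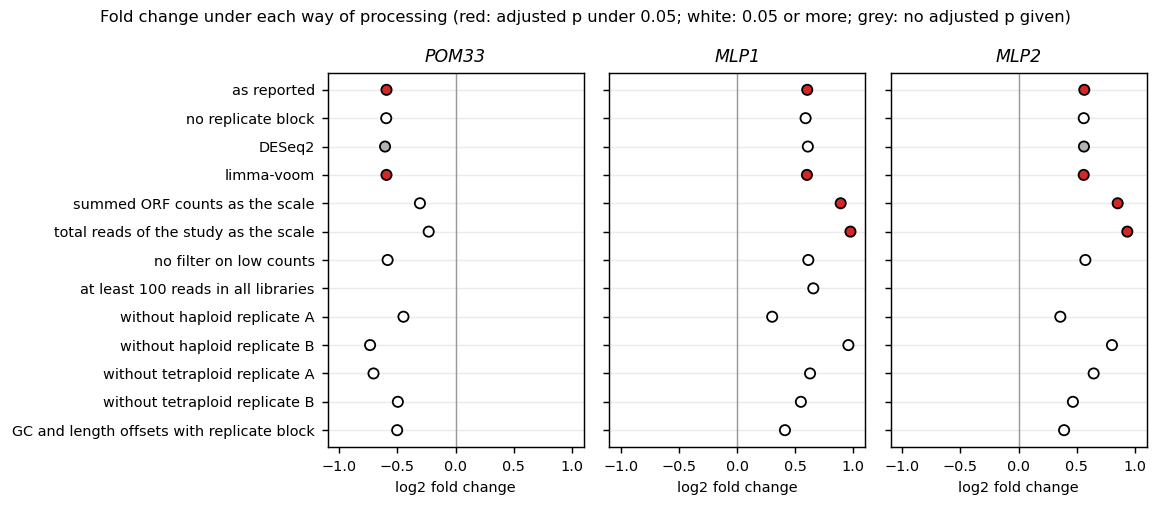
Log2 fold change, tetraploid over haploid (x axis), of POM33, MLP1 and MLP2 under each way of processing (y axis). Red points had an adjusted p under 0.05, white points 0.05 or more, and grey points were given no adjusted p by DESeq2, while POM33 and MLP2 had too few reads for the fit with at least 100 reads in all libraries. All points of POM33 lie below 0, from -0.73 to -0.23, and all points of MLP1 and MLP2 above 0.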

How the data were processed

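Poly(A) RNA of 4 cultures was sequenced for 36 cycles. The authors used Bowtie and the Σ1278b genome, and the deposited values are raw counts of uniquely mapped reads per ORF, on both strands. An unlisted ORF was taken as 0. ORFs overlapping a pore gene could share its reads, and none of the 33 overlaps another annotated gene in the S288C reference R64, from which names, coding lengths and GC content come (5754 of 6348 ORFs were named, and the other 594 were not checked). ORFs that reached 15 reads in either library of pair A, and likewise of pair B, were tested with the quasi-likelihood test of edgeR 4.0.16 (R 4.3.3), TMM factors from 0.840 to 1.19, and the pair as a block, after the study's pairing. Deviations of paired libraries correlated across genes (r = 0.52). P-values were adjusted by Benjamini-Hochberg over all tested ORFs. The biological coefficient of variation was 0.0858 with the block and 0.182 without it. Intervals use a t distribution with the fit's degrees of freedom. Alternatives used limma 3.58.1, DESeq2 1.42.0, other scales (summed counts, total reads given by the study) and filters, and single libraries left out (without the block). The code was tested on simulated counts. All members are named, and library values are given for calls, the 5 highest and 5 lowest, NIC96 and the paralogs, and for the 2 highest and 2 lowest transport genes. Members and lists were chosen with earlier results of these data known. FG pairs were counted in translated R64 coding sequences.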

Additional observations from a re-analysis of the deposited data

How the results depend on the processing

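There were 2 cultures of 1 strain per ploidy. With the block, p-values measure how far the 2 pairs disagree on the ploidy difference, using a dispersion shared across genes. Only without the block do they measure the spread between cultures of a ploidy. DESeq2 gave no adjusted p to 6 pore genes, POM33 and MLP2 among them, and the fit with at least 100 reads in all libraries held 29. The GC and length offsets were fitted for 5297 ORFs. The fits without single libraries also had no block, so they cannot show whether a call made with the block depended on a single library. The cause was not tested for any of these differences.

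No replicate block, DESeq2, no filter on low counts, at least 100 reads in all libraries, and the GC and length offsets with replicate block (chosen after seeing the data) each gave 0 pore genes lower and 0 higher in tetraploids, as did each fit without 1 library. limma-voom gave the same counts of 1 lower and 2 higher. With summed ORF counts as the scale 0 were lower and 9 higher, and with the total reads of the study 0 were lower and 19 higher. Over all tested ORFs the counts were 304 lower and 143 higher (7.87%) as reported, 18 and 4 (0.387%) with no replicate block, 135 and 25 (2.82%) with DESeq2, 369 and 154 (9.21%) with limma-voom, 87 and 12 (1.56%) with no filter, 123 and 52 (7.34%) with at least 100 reads, 115 and 1168 (22.6%) with summed ORF counts, 103 and 2098 (38.8%) with total reads, and 327 and 281 (11.5%) with the GC and length offsets. Without single libraries 0.440% to 1.46% of all ORFs were called.

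The median of the pore genes was 0.070 with DESeq2, 0.37 with summed ORF counts, 0.45 with total reads and 0.14 with at least 100 reads, and it ran from 0.0085 to 0.078 without single libraries. Its distance from the median of all ORFs, 0.07 as reported, was 0.086 with no filter, 0.14 with at least 100 reads, 0.048 with the GC and length offsets, and from -0.023 (without haploid B) to 0.086 without single libraries. For the transport genes 1 was higher with limma-voom, 10 with summed ORF counts and 13 with total reads, and 1 was higher and 1 lower with the GC and length offsets. Their median was 0.30 with summed ORF counts, 0.38 with total reads and from -0.011 to 0.045 without single libraries. Between the pairs, 1 pore gene differed with limma-voom, 1 with summed ORF counts and 3 with total reads, beside 10.3%, 11.7% and 17.4% of all ORFs.

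With summed ORF counts and with total reads, respectively, the log2 fold change was 0.019 and 0.098 for NIC96, 0.028 and 0.10 for NUP159, 0.060 and 0.14 for NDC1, 0.084 and 0.16 for SEC13, and 0.17 and 0.25 for NUP170. NUP157 was at -0.016 with the GC and length offsets. Without single libraries NUP100 ran from -0.059 to 0.19 and PER33 from -1.16 to 0.24.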
